A study of Rattus norvegicus with 6 samples.

Results

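The genes described here encode the chains of collagen, the main protein of bone, tooth and ligament matrix. They were taken by name, as every gene of the deposited count table whose symbol was Col, a type number, the letter a and a chain number. This rule found 44 genes of 37203 in the table, and it used no measured value. By the known architecture of their proteins, 11 encode fibrillar chains, 9 encode FACIT chains (fibril-associated collagens with interrupted triple helices), 9 encode network-forming chains and 15 belong to none of these classes. Col21a1, a further FACIT gene, was not analysed here.

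RNA was sequenced from alveolar tissue of rats, the part of the jaw that holds the teeth, to compare tooth movement with and without corticision, a cut through the cortical plate of the bone. All animals whose libraries were used underwent tooth movement. The titles put 3 libraries in the case group (numbers 5, 6 and 9) and 3 in the control group (numbers 5, 6 and 10). The source field gives the case libraries as moved without corticision and the control libraries as moved with it, which is the reverse of the usual sense of case and control, and which field is right cannot be told from the labels. Groups are therefore called by their titles. Differences and log2 fold changes are case minus control. The sources used here do not give strain, sex, age, force, duration or the number of animals behind a library, so a p-value measures the spread between these libraries, which may be technical.

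A collagen molecule is 3 chains wound into a triple helix. Fibrillar collagens assemble into the banded fibrils that give bone, dentin, ligament and gingiva their tensile strength; type I is the bulk of bone matrix, with types III and V in the fibrils of softer tissue and types II and XI best known from cartilage. FACIT chains sit on the surface of fibrils, type IV builds the sheet of every basement membrane, types VIII and X form lattices, type VI forms beaded filaments around cells, and types XV and XVIII lie where basement membranes meet the matrix around vessels, muscle and nerve. When a tooth is moved through bone, osteoblasts and ligament fibroblasts lay down collagen on one side of the root while it is broken down on the other.

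The start regions of the genes whose group difference is described most closely are printed first. They come from RefSeq, assembly GRCr8, whose table holds the region around the annotated start of 35 of the 44 genes. Capitals mark 3 short motifs on either strand: TATAAA (the TATA box), CCAAT (the CCAAT box) and GGGCGG (the GC box, to which Sp1 binds); no matches shown overlap. Col4a1 and Col4a2, which encode the alpha 1 and alpha 2 chains of type IV, are read away from each other on chromosome 16 with 76 bases between their annotated starts, shown on the strand of Col4a1. For Col15a1, Col18a1 and Col1a2 (the alpha 2 chain of type I, as a fibrillar counterpart) the 250 bases before the start are shown, all on the plus strand.
Col4a2 to Col4a1, chr16:84885521-84885596: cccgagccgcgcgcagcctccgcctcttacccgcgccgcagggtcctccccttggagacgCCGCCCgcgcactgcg
Col15a1, chr5:66297296-66297545: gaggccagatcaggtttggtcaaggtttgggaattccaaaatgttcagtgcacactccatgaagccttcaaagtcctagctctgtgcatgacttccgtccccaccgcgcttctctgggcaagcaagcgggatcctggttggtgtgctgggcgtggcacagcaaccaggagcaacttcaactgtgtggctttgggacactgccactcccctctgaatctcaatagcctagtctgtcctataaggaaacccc
Col18a1, chr20:11473395-11473644: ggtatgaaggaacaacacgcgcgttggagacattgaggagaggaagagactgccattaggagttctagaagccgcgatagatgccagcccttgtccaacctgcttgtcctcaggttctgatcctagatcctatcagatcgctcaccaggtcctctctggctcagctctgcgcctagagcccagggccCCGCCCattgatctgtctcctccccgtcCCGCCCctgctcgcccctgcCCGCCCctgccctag
Col1a2, chr4:33518307-33518556: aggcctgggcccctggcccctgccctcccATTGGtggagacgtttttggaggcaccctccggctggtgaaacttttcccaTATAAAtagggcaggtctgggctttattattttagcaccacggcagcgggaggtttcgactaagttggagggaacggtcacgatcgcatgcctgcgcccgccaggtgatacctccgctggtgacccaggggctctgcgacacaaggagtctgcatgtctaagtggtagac

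In windows of 300 bases (250 before and 50 after the start), the GC box was present in 19 of the 35 collagen genes, against 34.9% of the windows of all genes in the RefSeq table. It was in 7 of 9 network genes, 6 of 8 fibrillar genes, 2 of 5 FACIT genes and 4 of 13 of the remainder. The match printed between the starts of Col4a2 and Col4a1 lies in the windows of both genes and is counted for each. The TATA box was present in Col1a2, Col10a1, Col13a1 and Col17a1, 4 of 35 against 14.3% of all windows, and the CCAAT box in 11 of 35 against 37.7%. A match says only that these letters are in the window. Among the 44 genes, 7 pairs are neighbours along a chromosome of this assembly, and in 2 of these pairs, Col4a2 with Col4a1 and Col4a4 with Col4a3, the start windows overlap on opposite strands.

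Library totals ran from 10886303 to 14433740 counts, and 41 to 43 of the 44 collagen genes had a count in each library. Libraries case 5 and control 5 stand apart from the other 4 across all genes: on the first principal component they scored -34.8 and -77.2, and the others 24.9 to 30.7. Marker lists of neighbouring tissues were uneven between single libraries. The summed level of 8 oral epithelium genes, in CPM (counts per 1000000, scaled by the trimmed mean of M-values), was 3600.0 in control 5 and 19.6 to 55.6 elsewhere. Skeletal muscle genes summed to 9.25 CPM in control 5 and 113 to 1242 elsewhere, and erythroid genes to 1825 CPM in case 6 and 7331 to 22016 elsewhere. Tooth-forming cell genes summed to 453 CPM in case 5, 63.4 in control 5 and 0.365 to 6.75 elsewhere. Ligament and tendon genes summed to 876 to 2364 CPM in case and 1252 to 2342 in control. The 8 cartilage genes summed to 16.7 to 65.7 CPM in case and 39.9 to 54.8 CPM in control. The 7 osteoblast markers, among them Bglap and Ibsp, were all tested and summed to 8305 to 11651 CPM in case and 9182 to 11594 CPM in control. In bulk tissue, fewer cells of a type and less RNA per cell cannot be told apart, and this holds for every difference that follows.

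Collagen genes took 14.0%, 7.42% and 6.62% of all counts in case 5, 6 and 9, against 9.10%, 10.5% and 11.7% in control 5, 6 and 10. The highest and the 2 lowest shares were thus both among the case libraries, and the groups overlap, at 9.34 ± 4.05% in case and 10.4 ± 1.32% in control. Errors after ± are SDs over the 3 libraries of a group. Counting error was far smaller, with 95% Wilson intervals at most 0.0192 percentage points to either side; these cover counting error only. Shares are of reads, not per length, since no transcript lengths were used, so a long chain takes a larger share than a short one at the same number of molecules.

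Fibrillar chains took 96.2%, 93.4% and 93.3% of the collagen counts in case 5, 6 and 9, against 93.2%, 95.6% and 93.9% in control 5, 6 and 10. Type I alone (Col1a1 and Col1a2) took 78.9 to 84.2% in case and 76.3 to 83.3% in control. FACIT chains took 1.11 to 1.51% in case and 0.924 to 1.86% in control, network chains 0.611 to 1.49% in case and 1.02 to 1.47% in control, and the remaining chains 2.09 to 3.82% in case and 2.44 to 3.44% in control. In each of the 4 classes the groups overlapped in the share of collagen counts. Type I made up at least 76.3% of the collagen counts in each of the 6 libraries.

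Type I so dominates these shares that the other chains were also read without it. Of the collagen counts left, type III took 34.2 to 37.7% in case and 36.2 to 41.0% in control, and types V and XI together took 29.9 to 39.3% in case and 29.9 to 36.9% in control. As a share of all counts, network chains did not overlap between the groups, at 0.0855%, 0.0968% and 0.0986% in case 5, 6 and 9, against 0.133%, 0.107% and 0.151% in control 5, 6 and 10. The means were 0.0936 ± 0.00711% in case and 0.130 ± 0.0222% in control. The other 3 classes overlapped on this measure.

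**Figure D1:**
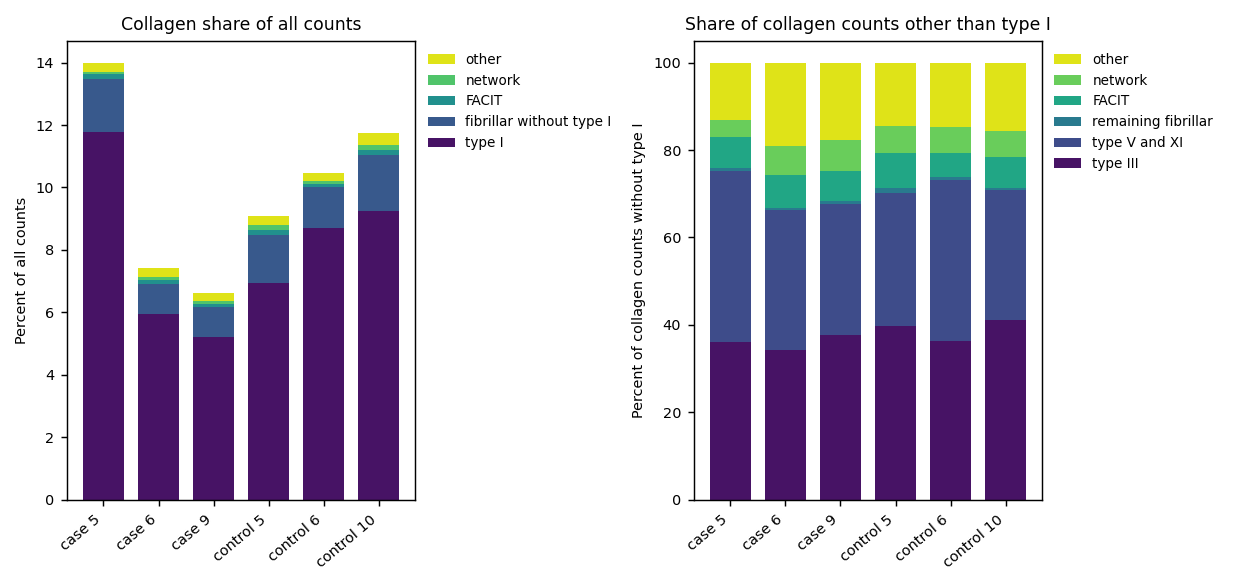
Left, percent of all counts taken by collagen classes in each library; right, percent of the collagen counts other than type I taken by each type or class. Bars are single libraries, case libraries left of control libraries: the total runs from 6.62% in case 9 to 14.0% in case 5, and on the right type III takes from 34.2% in case 6 to 41.0% in control 10.

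The question put to single genes was which collagen chains differed between tissue moved without corticision (titled case) and with it (titled control), as the source field has it. Of the 44 genes, 38 passed edgeR's filter on low counts, and of these 36 had a negative fold change and 2 a positive one. Their median log2 fold change was -0.35, against -0.02 over all 16066 genes tested, of which 53.7% were negative. None of the 38 passed the edgeR quasi-likelihood test at a Benjamini-Hochberg adjusted p of 0.05 over all genes, where 0.00% of all genes passed; the adjusted p of each of the 38 was 0.999. DESeq2 and limma-voom also called 0 of the 38, where DESeq2 called 0.131% of all genes. The genes are read from the same 6 libraries, so 36 of 38 is not a count of separate observations.

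At an unadjusted p under 0.05 there were 6 collagen genes, all lower in case, where 2.27% of all tested genes were lower and 1.88% higher at that level (4.15% in all): Col15a1, Col4a1, Col4a2, Col18a1, Col14a1 and Col28a1. The groups did not overlap in 5 genes, all lower in case, where 4.42% of all tested genes lay that way: Col4a1, Col4a2, Col15a1, Col26a1 and Col28a1. The first of these counts depends on single libraries. Without each library in turn, the genes with an unadjusted p under 0.05 and lower in case numbered 2 without case 6 (1.40% of all genes), 2 without case 9 (1.65%), 6 without control 5 (4.51%), 9 without control 6 (1.67%), 2 without control 10 (1.25%) and 13 without case 5 (5.04%). Col15a1 was among them each time, and 0 collagen genes were higher in case at that level.

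By class, 11 of 11 tested fibrillar, 7 of 7 network, 13 of 13 remaining and 5 of 7 FACIT genes had a negative fold change. Their medians were -0.23 for fibrillar, -0.58 for network, -0.43 for the remaining and -0.21 for FACIT genes. The 6 genes too low to test were Col4a6, Col6a6, Col9a1, Col10a1, Col19a1 and Col23a1, so the counts above do not cover the whole family.

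**Figure D2:**
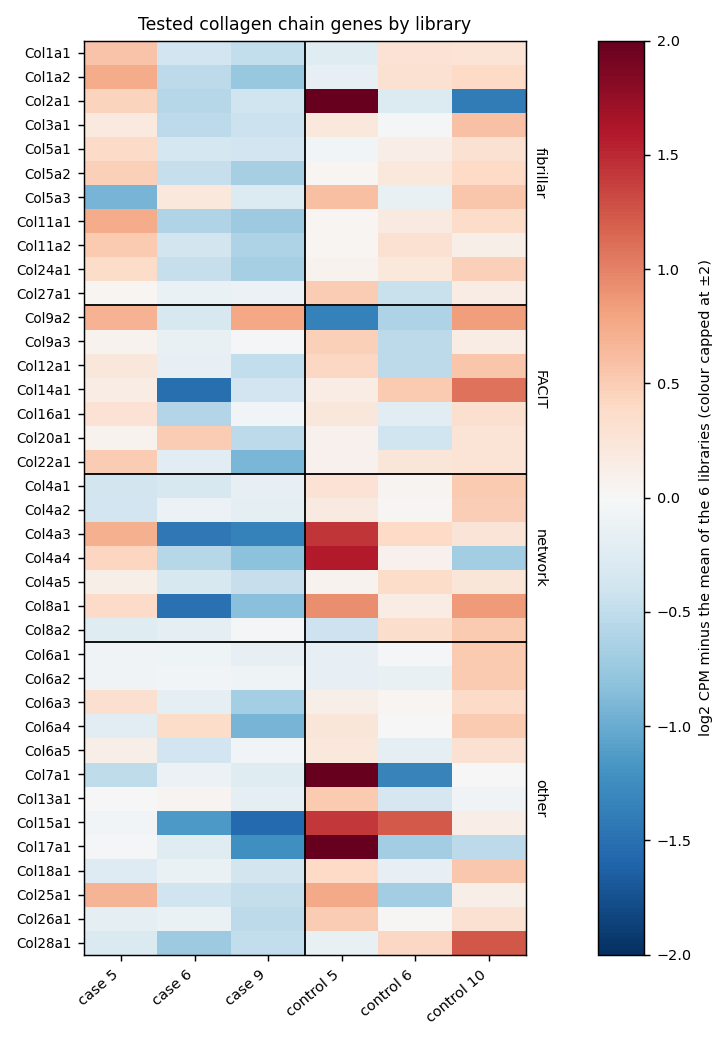
Each row is a tested collagen chain gene and each column a library; colour is log2 CPM minus the mean of the 6 libraries. Col1a1, Col1a2, Col5a1, Col5a2, Col11a1 and Col11a2 are highest in case 5 and lowest in case 9, while Col4a1 and Col4a2 are below their mean in all 3 case libraries.

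**Figure D3:**
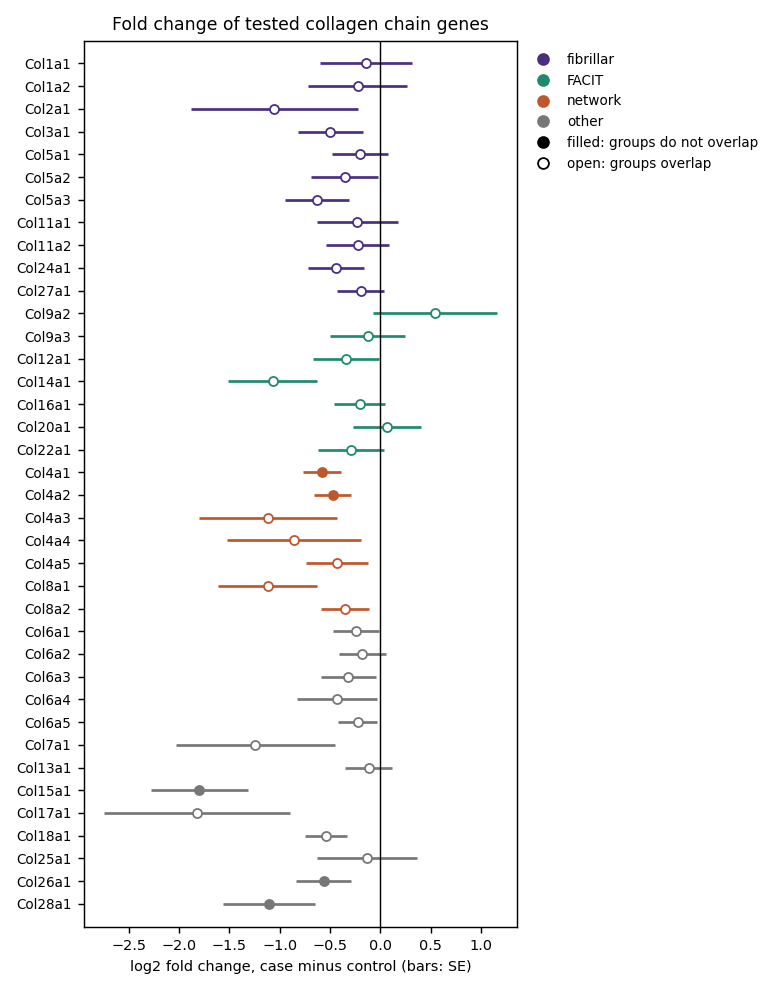
Points are edgeR log2 fold changes, case minus control, with bars of 1 SE for the 38 tested genes, coloured by class and filled where the groups do not overlap. Only Col9a2 and Col20a1 lie right of 0, and 5 points are filled.

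Among the fibrillar chains, Col1a1 (the alpha 1 chain of type I) was at 74554, 38598 and 35945 CPM in case 5, 6 and 9, against 42519.5, 61508 and 60751 CPM in control 5, 6 and 10. Its partner Col1a2 was at 43797, 18209 and 15474 CPM in case 5, 6 and 9, against 23496, 32441 and 34678 CPM in control 5, 6 and 10. For both genes case 5 was the highest and case 9 the lowest of the 6 libraries, and the groups overlap. The log2 fold change was -0.14 (SE 0.45) for Col1a1 and -0.23 (SE 0.49) for Col1a2. Of the 7 osteoblast markers, Bglap, Sp7 and Runx2 were also highest in case 5. Ibsp was highest in control 10, Alpl in case 9, Dmp1 in control 5 and Phospho1 in control 6. Bglap, the osteocalcin gene, was at 5961, 2415 and 3314 CPM in case 5, 6 and 9, against 3199, 4926 and 3403 CPM in control 5, 6 and 10. The part of osteoblast content in the type I values was not tested.

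Col3a1, which encodes the single chain of type III, was at 7990.1, 4860.5 and 5185 CPM in case 5, 6 and 9, against 8114, 6811 and 10519 CPM in control 5, 6 and 10. Case 5 lay among the controls, and the other case libraries below them, with a log2 fold change of -0.50 (SE 0.32). Types V and XI, which set fibril diameter from within the fibril, followed type I more closely. Col5a1 was at 2407, 1445 and 1415 CPM in case 5, 6 and 9, against 1775, 2018 and 2277 CPM in control 5, 6 and 10. Col5a2 was at 2473, 1297 and 1119 CPM in case, against 1837, 2055 and 2348 CPM in control, by library in the same order. Both had case 5 highest and case 9 lowest.

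The type XI chains, best known from cartilage, also had case 5 highest and case 9 lowest, and their levels stood far above the summed cartilage markers given above. Col11a1 was at 2517, 991 and 910.3 CPM in case 5, 6 and 9, against 1549, 1694 and 1932 CPM in control 5, 6 and 10. Col11a2 was at 1262, 676 and 569.7 CPM in case and 903, 1077 and 948 CPM in control, in the same order. The log2 fold changes were -0.23 (SE 0.41) for Col11a1 and -0.22 (SE 0.31) for Col11a2. Col5a3, a rarer type V chain, had case 5 as its lowest library, at 60.5 CPM against 94.9 to 133 CPM in the other case libraries and 104 to 175 CPM in control. The low fibrillar chains Col24a1 and Col27a1 were at 27.7 to 56.3 and 38.0 to 42.6 CPM in case and at 45.8 to 60.6 and 30.7 to 59.2 CPM in control.

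How far the fibrillar chains stood below control rested on case 5. Without it the median log2 fold change of the 39 collagen genes then tested was -0.57, 37 of 39 were negative where 52.7% of all genes were, and 13 had an unadjusted p under 0.05, all lower in case, where 5.04% of all genes were lower at that level. These included Col1a2 (log2 fold change -0.82), Col3a1 (-0.73), Col5a2 (-0.76), Col11a1 (-0.83), Col11a2 (-0.62) and Col24a1 (-0.79), while Col4a2, Col18a1 and Col28a1 no longer did. Of the fibrillar chains, Col1a1 (-0.53, edgeR unadjusted p of 0.187), Col2a1, Col5a1, Col5a3 and Col27a1 were not under 0.05. Without both libraries numbered 5, 16 of 38 had an unadjusted p under 0.05, all lower in case, where 7.00% of all genes were lower at that level, but only 30 of 38 had a negative fold change, where 48.8% of all genes did. None passed after adjustment in either fit. Without case 9 instead, Col1a1 had a log2 fold change of 0.043 and Col1a2 of 0.038.

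FACIT chains decorate fibrils and link them to their surroundings. Col12a1, a type XII chain abundant in ligament and tendon, was at 931, 711 and 565 CPM in case 5, 6 and 9, against 1061, 558 and 1174 CPM in control 5, 6 and 10, so the lowest value was in control 6. Col16a1 was at 327, 179 and 258 CPM in case 5, 6 and 9, against 315, 231 and 335 CPM in control 5, 6 and 10. Col22a1, known from tissue junctions such as that of muscle and tendon, was at 275, 167 and 103 CPM in case 5, 6 and 9, against 205, 229 and 234 CPM in control 5, 6 and 10. Control lay within a narrow range for Col22a1, and case lay on both sides of it.

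Col14a1, a type XIV chain that limits the sideways growth of fibrils in mouse tendon, was at 11.6, 3.65 and 7.96 CPM in case 5, 6 and 9, against 11.5, 14.9 and 22.2 CPM in control 5, 6 and 10. Case 5 and control 5 were close to each other and the other case libraries lay below every control library, with a log2 fold change of -1.07 (SE 0.44) and an edgeR unadjusted p of 0.0424. Both genes with a positive fold change were FACIT genes. Col9a2, a type IX chain of cartilage, was at 2.15, 1.06 and 2.26 CPM in case 5, 6 and 9, against 0.524, 0.864 and 2.37 CPM in control 5, 6 and 10, with 6 to 27 counts in each library. Col20a1 was at 7.01, 9.42 and 4.61 CPM in case 5, 6 and 9, against 7.07, 5.02 and 8.02 CPM in control 5, 6 and 10. Neither separated the groups. Col9a3 was at 1.92 to 2.23 CPM in case and 1.49 to 2.97 CPM in control, and Col19a1 had at most 5 counts in a library.

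The network class was led by the main type IV chains, whose libraries were more even in case than in control. Col4a1 was at 467, 485 and 538 CPM in case 5, 6 and 9, against 734, 624 and 863 CPM in control 5, 6 and 10. Col4a2 was at 291, 349 and 329 CPM in case 5, 6 and 9, against 426, 385 and 533 CPM in control 5, 6 and 10. For both genes every case library lay below every control library, and case 5, the highest library in type I, was the lowest. The means were 497 ± 36.7 CPM in case and 741 ± 119.6 CPM in control for Col4a1, and 323 ± 29.4 CPM in case and 448 ± 76.6 CPM in control for Col4a2.

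The log2 fold changes were -0.58 (SE 0.19) for Col4a1, with an edgeR unadjusted p of 0.017, and -0.47 (SE 0.18) for Col4a2, with an edgeR unadjusted p of 0.0355. For Col4a1 the value stayed between -0.66 and -0.42 with each library left out in turn, and for Col4a2 between -0.54 and -0.29; neither passed after adjustment in any of these fits. The edgeR unadjusted p of Col4a1 ran from 0.0188 to 0.0884 over these fits and was over 0.05 without case 6 or control 10. That of Col4a2 ran from 0.0395 to 0.176 and was over 0.05 without case 5, case 6, case 9 or control 10. Both genes are expressed by endothelium. None of the 9 endothelial markers passed the edgeR test after adjustment. Each had a negative fold change (median -0.21), where 53.7% of all genes did, from -0.02 for Vwf to -0.43 for Emcn. In Pecam1 and Emcn the groups did not overlap, 2 of 9 where 4.42% of all genes were separate and lower in case. The same 2 of 9 had an edgeR unadjusted p under 0.05, where 2.27% of all genes were lower at that level. That p was 0.0223 for Pecam1 (log2 fold change -0.40) and 0.0337 for Emcn. The summed level of the 9 markers was 533 to 706 CPM in case and 645 to 741 CPM in control. Case 5 (706 CPM) lay above control 5 (645 CPM) and control 6 (692 CPM). The part of vessel content in the type IV difference was not tested.

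The minor type IV chains were scarce. Col4a3, Col4a4 and Col4a5 were at 0.398 to 3.51 CPM in case and 0.729 to 4.16 CPM in control, and Col4a6 had 1 to 5 counts in each library. Of the short-chain network collagens, Col8a2, known from the vessel wall and the cornea, was at 84.0, 87.3 and 96.7 CPM in case 5, 6 and 9, against 74.1, 127 and 142 CPM in control 5, 6 and 10. Control 5 was its lowest library. Col8a1 was at 8.61, 2.32 and 3.69 CPM in case 5, 6 and 9, against 12.6, 7.30 and 11.9 CPM in control 5, 6 and 10, and case 5 lay above control 6. Its log2 fold change was -1.12 (SE 0.49).

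Among the remaining chains, type VI took most of the counts. Col6a1 was at 907, 895 and 851 CPM in case 5, 6 and 9, against 849, 924 and 1359.7 CPM in control 5, 6 and 10. Col6a2 was at 860.1, 869 and 849.6 CPM in case 5, 6 and 9, against 809, 814 and 1295 CPM in control 5, 6 and 10. For both, control 10 stood above all others, and the other 5 libraries lay close together. Col6a3 was at 766, 539.9 and 384 CPM in case 5, 6 and 9, against 669.5, 632 and 803 CPM in control 5, 6 and 10, so it spread over the case libraries where Col6a1 and Col6a2 did not. Without control 10 the log2 fold change of Col6a1 was 0.030 and that of Col6a2 was 0.12.

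Types XV and XVIII, the multiplexins, both stood lower in case. Col18a1, whose C-terminal fragment endostatin restrains vessel growth, was at 181, 199 and 168 CPM in case 5, 6 and 9, against 285, 193 and 316 CPM in control 5, 6 and 10. Control 6 lay within the case range, and the log2 fold change was -0.54 (SE 0.21) with an edgeR unadjusted p of 0.0355. With each library left out in turn that p ran from 0.00773 to 0.158 and was under 0.05 without control 6 alone. Col15a1 had 80, 45 and 27 counts in case 5, 6 and 9, against 202, 197 and 80 counts in control 5, 6 and 10. That is 6.38, 2.99 and 2.26 CPM in case and 17.6, 15.5 and 7.29 CPM in control. Every case library lay below every control library, though case 5 and control 10 were close. Its log2 fold change of -1.80 (SE 0.49) had the smallest p of the family (edgeR unadjusted p of 0.00686) and stayed between -2.32 and -1.53 with each library left out in turn.

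In Col15a1 and in Col26a1 and Col28a1, the other 2 genes whose groups did not overlap, levels were low. Col26a1 was at 4.30, 4.51 and 3.44 CPM in case 5, 6 and 9, against 6.98, 5.02 and 6.11 CPM in control 5, 6 and 10. Its unscaled counts, 54, 68 and 41 in case and 80, 64 and 67 in control, did overlap. Col28a1, known in mouse from Schwann cells, was at 1.35, 0.995 and 1.17 CPM in case 5, 6 and 9, against 1.48, 2.20 and 3.92 CPM in control 5, 6 and 10. These came from 17, 15 and 14 counts in case and 17, 28 and 43 in control, so case 5 and control 5 had the same count. The 6 nerve and Schwann cell markers all had a negative fold change, with summed levels of 125 to 153 CPM in case and 137 to 225 CPM in control, and their part in the Col28a1 difference was not tested. Col13a1, a transmembrane chain, was at 128 to 152 CPM in case and 116 to 209 CPM in control. The low chains Col6a4 and Col25a1 were at 1.59 to 4.46 CPM in case and 1.73 to 4.71 CPM in control, Col6a5 was at 34.5 to 48.6 CPM in case and 39.6 to 55.8 CPM in control, and Col6a6 had 3 to 11 counts in each library. Col23a1 was listed at 0 in all 6 libraries, where a count of 0 allows up to 0.208 (case 6) to 0.276 (control 5) counts per 1000000 of the unscaled library total, for counting error only. A listed 0 sets no firm bound in this table, since Hprt1, a gene of every cell, had 0, 118 and 71 counts in case 5, 6 and 9, against 0, 0 and 1 counts in control 5, 6 and 10.

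Some chains were high in control 5 alone. Col17a1, the transmembrane collagen of epithelial hemidesmosomes, was at 7.73, 6.63 and 3.35 CPM in case 5, 6 and 9, against 52.6, 4.87 and 5.47 CPM in control 5, 6 and 10. Col7a1, the anchoring fibril of epithelial basement membranes, was at 2.23, 2.92 and 2.68 CPM in case 5, 6 and 9, against 14.1, 1.26 and 3.19 CPM in control 5, 6 and 10. In the same library the oral epithelium list (8 of its 9 genes in the table, none of them at 0 in all libraries) summed to 3600.0 CPM, against 30.2 to 55.6 CPM in case and 19.6 and 38.5 CPM in the other control libraries. Its part in these values was not tested. Without control 5 the log2 fold changes were 0.20 for Col17a1 and 0.24 for Col7a1, in place of -1.82 and -1.24.

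Col2a1, Col9a1 and Col10a1, chains known from cartilage, were also highest there. Col2a1, the main chain of cartilage fibrils, was at 44.6, 22.2 and 25.1 CPM in case 5, 6 and 9, against 151 CPM in control 5, 27.1 in control 6 and 12.5 in control 10. Col10a1, the chain of hypertrophic cartilage, had 6, 1 and 0 counts in case 5, 6 and 9, against 116, 5 and 0 counts in control 5, 6 and 10. Col9a1 had 2, 0 and 0 counts in case, against 19, 0 and 0 counts in control, by library in the same order. The summed cartilage markers came to 65.7 CPM in case 5, against 54.8 CPM in control 5. Acan, a cartilage proteoglycan, took most of both sums, with 50.1 CPM in case 5, against 36.1 CPM in control 5. Sox9, Matn3, Hapln1, Lect1 and RGD1311447 were instead each highest in control 5, Lect1 with 3 to 6 counts in each library. Ucma was lowest in control 5, at 0.786 CPM, and highest in control 6, at 5.10 CPM. Matn1 had at most 1 count in a library and 0 in control 5. The part of cartilage content in these values was not tested. Without control 5 the log2 fold change of Col2a1 was 0.63 in place of -1.05, and over the 38 genes then tested the median stayed at -0.35, with 28 of 38 negative where 49.7% of all genes were.

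**Figure D4:**
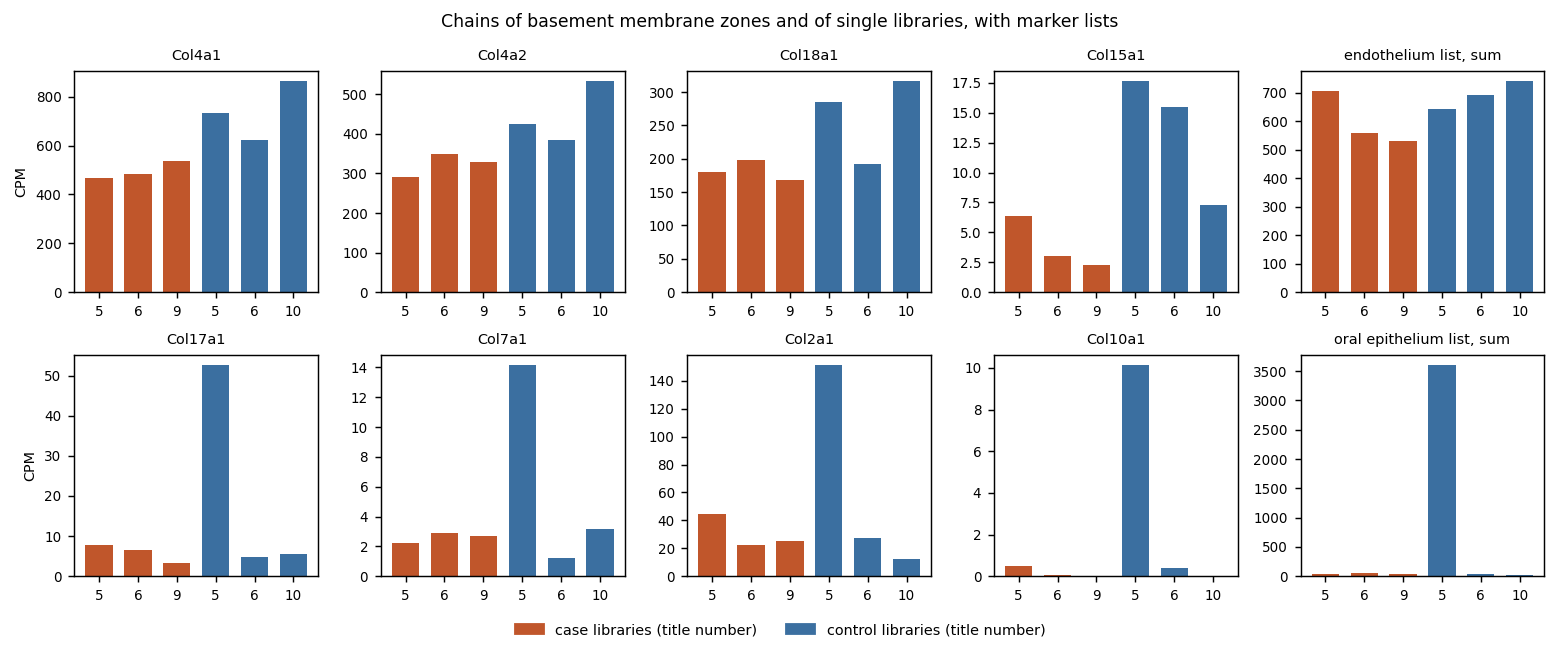
Bars give CPM in single libraries, case left of control, labelled by title number. In the upper row Col4a1, Col4a2 and Col15a1 are lower in every case library than in any control library, unlike Col18a1 and the sum of 9 endothelial markers; in the lower row Col17a1, Col7a1, Col2a1 and Col10a1 peak in control 5, as does the sum of the oral epithelium list.

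Ratios of chains within a library need no scaling between libraries, and 12 of 14 pairs of interest had at least 10 counts of both genes in every library. The ratio varied least in 2 pairs of chains that assemble together. Col6a1 over Col6a2 was 1.05, 1.03 and 1.002 in case 5, 6 and 9, against 1.05, 1.13 and 1.05 in control 5, 6 and 10. Col4a1 over Col4a2 was 1.61, 1.39 and 1.63 in case, against 1.72, 1.62 and 1.62 in control, in the same order. The highest ratio was 1.13 times the lowest for the type VI pair and 1.24 times for the type IV pair, whose start regions are printed above. Other pairs came close to the type IV pair. The highest ratio was 1.29 times the lowest for Col5a1 over Col1a1, 1.31 times for Col5a1 over Col5a2 and 1.36 times for Col1a1 over Col1a2. The genes of the type VI pair and of the type IV pair also lie next to each other on their chromosomes. No ratio was taken for the other neighbouring pairs, and the part of position in these ratios was not tested. Col6a3, the other main type VI chain, varied more against Col6a1. Col6a3 over Col6a1 was 0.845, 0.603 and 0.451 in case 5, 6 and 9, against 0.788, 0.684 and 0.591 in control 5, 6 and 10.

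Col1a1 over Col1a2, the pair that builds type I, was 1.70, 2.12 and 2.32 in case 5, 6 and 9, against 1.81, 1.90 and 1.75 in control 5, 6 and 10. Col5a1 over Col5a2 was 0.974, 1.11 and 1.26 in case, against 0.966, 0.982 and 0.970 in control. In both pairs case 6 and case 9 lay above the control range. Case 5 was below it in the type I pair and within it in the type V pair, and the control libraries lay close together. The mean log2 difference was 0.16 for the type I pair and 0.19 for the type V pair.

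The spread of a ratio did not follow whether its chains were of 1 type. Col3a1 over Col1a1 was 0.107, 0.126 and 0.144 in case 5, 6 and 9, against 0.191, 0.111 and 0.173 in control 5, 6 and 10. The highest ratio was 1.78 times the lowest for this pair and 2.75 times for Col12a1 over Col1a1, both across types. It was 6.38 times the lowest for Col8a1 over Col8a2, chains of 1 type. Col5a1 over Col1a1, of different types, stayed between 0.0323 and 0.0417 in the 6 libraries. In 0 of the 12 pairs did the groups separate. The smallest two-sided exact permutation p was 0.2, for Col5a1 over Col5a2, or 0.6 after Benjamini-Hochberg adjustment over the 12 pairs, and 3 libraries against 3 allow no p under 0.1.

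**Figure D5:**
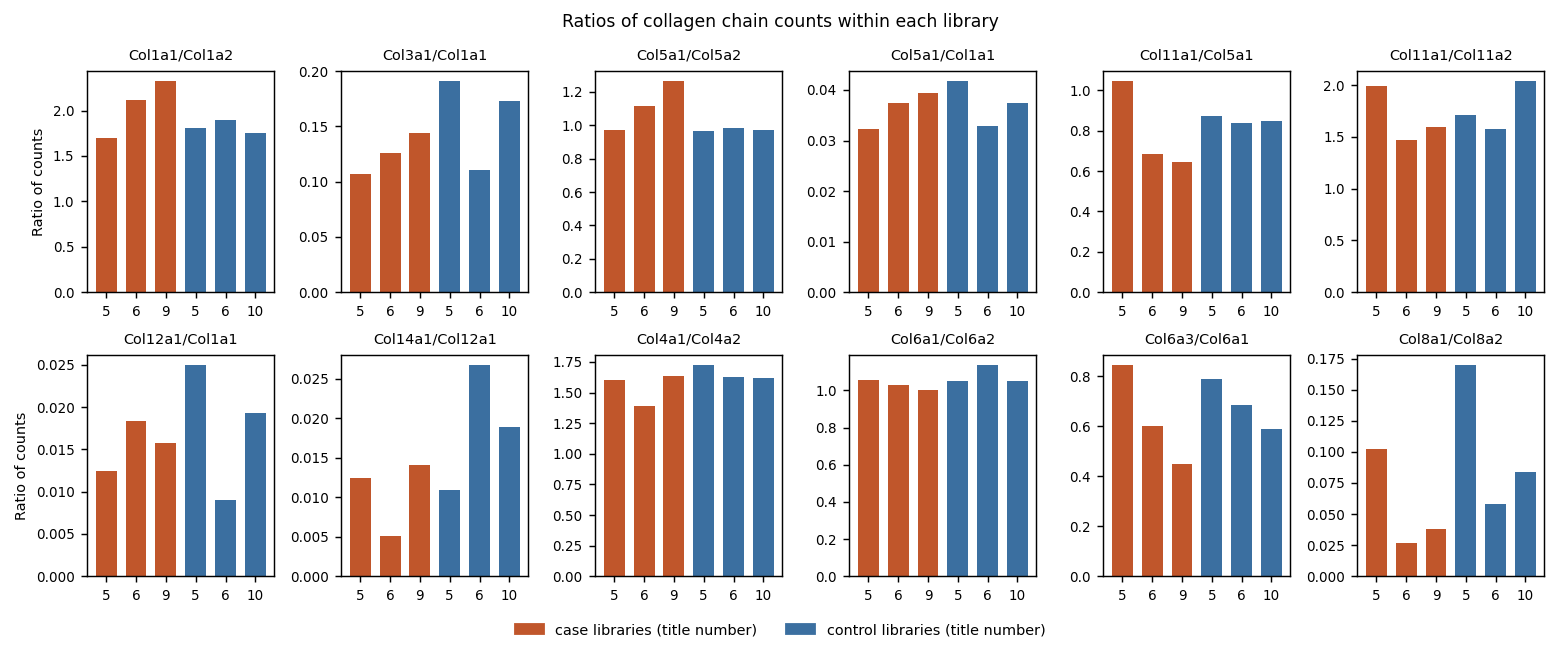
Ratios of counts of 2 chains within each library, for 12 pairs; bars are single libraries, case left of control, labelled by title number. The ratios of Col6a1 to Col6a2 and Col4a1 to Col4a2 vary least, whereas Col8a1 to Col8a2 runs from 0.0266 in case 6 to 0.170 in control 5.

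The genes that make, trim, bind and degrade collagen were read from 5 further lists. None of their members passed the edgeR test over all genes, and in 0 of their tested members did the groups separate, where 8.47% of all tested genes did in either direction. Folding and modification genes had 13 of 17 negative fold changes with a median of -0.09; Lepre1 (prolyl 3-hydroxylase 1) was at 198 ± 13.7 CPM in case, against 238 ± 50.2 CPM in control, and its partner Crtap at 26.7 ± 6.83 CPM in case, against 37.9 ± 13.1 CPM in control. Genes of propeptide cleavage and crosslinking had 11 of 11 negative with a median of -0.16. Of these, Lox, which oxidises lysines for crosslinks, was at 126 ± 37.5 CPM in case, against 203 ± 58.0 CPM in control (edgeR unadjusted p of 0.0416), and Adamts14, a procollagen N-proteinase, at 45.4 ± 21.2 CPM in case, against 65.1 ± 12.4 CPM in control.

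Fibril partners had 9 of 10 negative with a median of -0.29, among them the proteoglycan gene Dcn at 829 ± 147 CPM in case, against 1174 ± 358 CPM in control. Thbs2, whose loss in mice gives abnormal collagen fibrils, was at 219.9 ± 48.8 CPM in case, against 336 ± 99.96 CPM in control. Collagen breakdown genes had 5 of 7 negative with a median of -0.32. Their summed level did not overlap between the groups, at 7137, 8502 and 8405 CPM in case 5, 6 and 9, against 9089, 9042 and 11466 CPM in control 5, 6 and 10, though none of the 7 genes was separate by itself. The summed level of every other gene list, on collagen handling or of cell type markers, overlapped between the groups. The collagenase gene Mmp14 was at 622 ± 149 CPM in case, against 776 ± 78.3 CPM in control, and the gelatinase gene Mmp2 was at 837 ± 218 CPM in case, against 1042 ± 143 CPM in control. Collagen receptors had 6 of 7 negative with a median of -0.16; the integrin genes Itga11 and Itga1 were at 73.0 ± 19.8 and 31.0 ± 10.1 CPM in case and at 93.3 ± 9.41 and 37.0 ± 2.98 CPM in control. These medians lie between that of all genes (-0.02) and that of the collagen chains (-0.35).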

How the data were processed

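Total RNA from rat alveolar tissue was made into single-end libraries with an Ion Total RNA-Seq kit, per the labels' protocols. The values the authors deposited are read counts by gene symbol in 1 table, all whole numbers and not normalized to a common total. The aligner, counter, build, annotation and strand setting were not stated in the sources used here, so reads of overlapping or similar genes may have been shared. Columns were matched to libraries by title, and the collagen genes, gene lists and tests were chosen with earlier results of these data known.

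Counts were filtered with filterByExpr, scaled by TMM and tested by the quasi-likelihood test of edgeR 4.0.16 (R 4.3.3), with group alone in the design and Benjamini-Hochberg adjustment over all 16066 genes. SE is the log2 fold change over the square root of F. The test was first tried on simulated counts. CPM uses TMM-scaled totals. Shares have Wilson intervals (statsmodels 0.14.6), and ratios an exact permutation test. No p is given for sums over collagen genes. Members given library by library were the 5 with the smallest p in either direction (only 2 were positive), the 3 with most counts in each class and the chains of the pairs; the others given so were chosen after their values were seen. From each list on collagen handling the 2 genes with the smallest p are named. Of the list genes, 5 were matched through older symbols. Alternatives used DESeq2 1.42.0 and limma 3.58.1. Figures were drawn with matplotlib 3.10.9.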

Additional observations from a re-analysis of the deposited data

How the results depend on the processing

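Over all genes, the count called was 0 with edgeR, 21 with DESeq2 and 0 to 2 with each library left out (2 without control 5); collagen genes called were 0 in every fit run. The median log2 fold change of the tested collagen genes was -0.35 and ran from -0.57 (without case 5) to -0.22 with each library left out. The difference in collagen share of all counts, -1.09 percentage points, ran from -3.42 to 0.27 with each library left out. Shares of collagen counts changed sign in the same way: fibrillar 0.026 (-0.92 to 0.70), FACIT -0.061 (-0.31 to 0.16), network -0.12 (-0.30 to 0.14) and the remaining chains 0.16 (-0.16 to 0.72). Those that changed sign were -1.44 (fibrillar), 0.28 (FACIT) and 0.25 (network) without both libraries numbered 5, and -1.83 (fibrillar) and 0.37 (FACIT) with type I left out. The difference for the remaining chains stayed positive in both settings, at 1.77 with type I left out. Their shares of collagen counts were 3.82% and 3.75% in case 6 and 9, against 2.44% and 3.31% in control 6 and 10. Log2 ratios that changed sign with a library left out were Col5a1 to Col1a1 (-0.13 to 0.047, and 0.13 without both numbered 5), Col11a1 to Col11a2 (-0.20 to 0.026), Col12a1 to Col1a1 (-0.52 to 0.21, and 0.36) and Col6a3 to Col6a1 (-0.39 to 0.063). Among the collagen genes given library by library by the rule, log2 fold changes did so for Col1a1 (-0.53 to 0.043), Col1a2 (-0.82 to 0.038), Col6a1 (-0.37 to 0.030), Col6a2 (-0.29 to 0.12), Col11a1 (-0.83 to 0.024) and Col20a1 (-0.20 to 0.30). Col2a1, Col4a4, Col7a1, Col9a3, Col13a1, Col17a1, Col25a1 and Col27a1 also turned positive without control 5. The causes were not tested.

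Numbers 5 and 6 occur in both groups, but the labels do not say that a number pairs libraries. Deviations from the group means correlated across genes at 0.38 for number 5 and 0.14 for number 6. Between case and control libraries of unlike number they correlated at -0.34 (case 5 with control 6) to 0.28 (case 9 with control 6). The value for number 6 lay within that range. With the title number as a replicate block, edgeR called 0 genes and 0 collagen genes, and the median over collagen genes was -0.15. Numbers 9 and 10 occur in a single library each, so under the block the group difference rests on the libraries numbered 5 and 6. The effect of the block therefore cannot be told apart from that of leaving out case 9 and control 10. Negative fold changes numbered 30 of 38 collagen genes, in place of 36, where 8513 of 16066 genes were negative. Of the collagen genes, 3 (Col2a1, Col8a1 and Col15a1), in place of 6, had an unadjusted p under 0.05 and were lower in case, as were 369 of 16066 genes. Log2 fold changes under the block were 0.069 (Col1a1), 0.033 (Col1a2), 0.024 (Col6a1), 0.091 (Col6a2) and 0.080 (Col12a1). Other scalings, filters and limma-voom changed no direction among the collagen genes given library by library by the rule. Shares per coding length were not run, for want of transcript lengths. Chains with fewer than 50 counts in a library, such as Col4a3 or Col28a1, are limited by depth.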
